A study of Mus musculus with 2 samples.

Results

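The IgA assembly and secretion genes are 9 genes. Mzb1 and Jchain serve antibody assembly, Fkbp11, Edem1, Derl3 and Lman1 the folding, degradation and export of ER proteins, and Ell2 and Creb3l2 gene expression in secretory cells, while Sdc1 encodes a plasma cell surface protein. They were chosen by symbol and matched to Ensembl gene identifiers, ignoring the version, and they make up 9 of the 43346 Ensembl genes in the deposited tables. All 9 were matched in both libraries. They lie on 7 chromosomes, and positions below are of GRCm38, the same assembly as mm10.

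The libraries come from CH12.LX, an immortalized B-cell lymphoma line of the mouse strain B10.H-2aH-4bp/Wts. Polyadenylated RNA was read by single-end sequencing in biological replicates 1 and 2, each with a biosample entry of its own. No treatment is named and the age is unknown, so both libraries form 1 group without a control, and a difference between them is one between libraries and not between conditions. The labels give the sex as female, yet the Y-linked genes Eif2s3y (63.6 TPM in replicate 1 and 50.5 TPM in replicate 2) and Ddx3y (29.1 and 25.4 TPM) were expressed and Xist had 1 and 0 counts, so the libraries go against that label.

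Mucosal IgA is secreted mainly as polymers in which monomers are disulfide-linked through a joining chain. The heavy chains are glycoproteins that fold in the endoplasmic reticulum (ER), where chaperones hold unfinished subunits, lectins and the ER-associated degradation route (ERAD) remove those that fail, and cargo receptors move finished protein towards the Golgi. Plasma cells expand this machinery through the unfolded protein response, and at the heavy chain genes they shift messenger RNA processing from the membrane form to the secreted form.

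Levels are in TPM, the usual unit of transcript abundance, which gives read numbers corrected for transcript length and scaled to the library, so levels of different genes can be set side by side. Detection meant at least 1 TPM in each library. All 9 genes were detected, where 27.4% of all Ensembl genes and 48.0% of protein-coding genes were. Their mean levels ran from 752 TPM for Mzb1 to 1.41 TPM for Sdc1, a 533-fold span. The median of the 9 was 51.8 TPM, beside 21.0 TPM over the 10317 detected protein-coding genes, and 5 of the 9 lay above that second median. Mzb1 and Jchain together held 82.6% of the summed level of the 9 genes in replicate 1 and 81.0% in replicate 2.

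**Figure D1:**
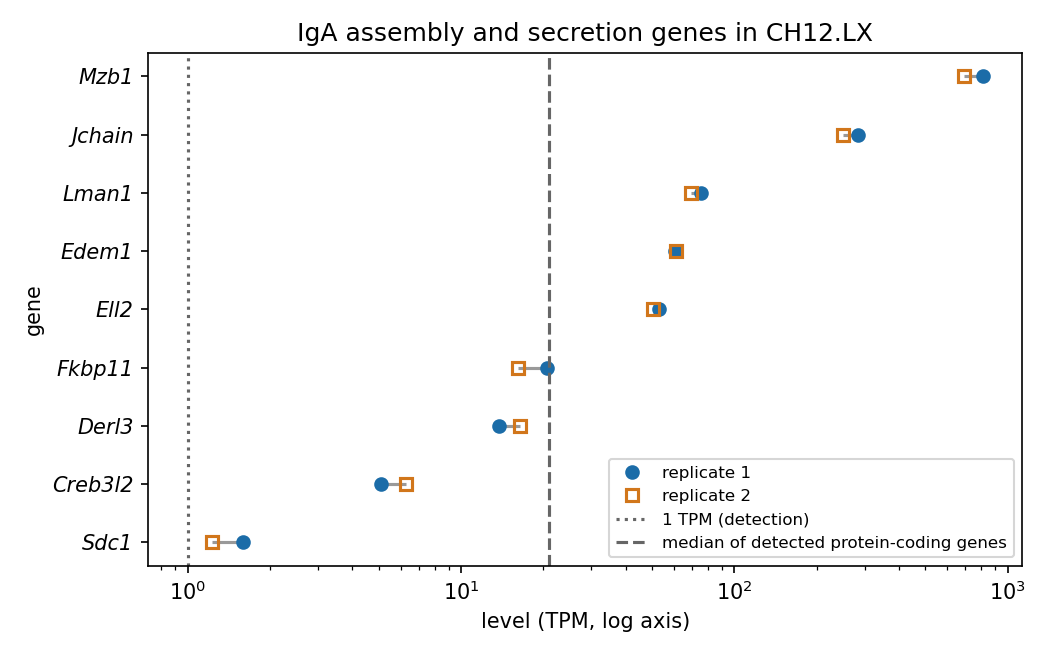
Level of each of the 9 genes in TPM (log axis) in replicate 1 (filled circles) and replicate 2 (open squares). The vertical lines mark 1 TPM and the median of detected protein-coding genes, 21.0 TPM. Mzb1 and Jchain stand far to the right, and the values of Fkbp11 and Derl3 overlap.

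The stretches upstream of Derl3 and Ell2 are shown first, because these are the genes of the 9 whose promoter window held one of the 4 response elements searched. Windows of 300 bases, 250 before and 50 after each RefSeq start on GRCm38.p6, were searched on both strands. The motifs were the ER stress response element (ERSE, CCAAT and CCACG with 9 bases of any kind between them), ERSE-II (ATTGG and CCACG with 1 base between them), an unfolded protein response element (UPRE, TGACGTGG) and the cyclic AMP response element (CRE, TGACGTCA). UPRE and CRE share their first 6 letters, and CCACG, or CGTGG on the other strand, is part of ERSE, ERSE-II and UPRE, so matches can overlap. Windows were used for 7 of the 9 genes. In the lines below, capitals mark the match and the strand is the plus strand.

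Derl3, chr10:75893148-75893397: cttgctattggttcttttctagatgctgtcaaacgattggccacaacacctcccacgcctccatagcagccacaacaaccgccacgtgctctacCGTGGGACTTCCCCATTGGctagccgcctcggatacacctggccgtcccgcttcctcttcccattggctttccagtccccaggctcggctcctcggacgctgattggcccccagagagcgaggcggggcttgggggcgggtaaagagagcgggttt

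Ell2, chr13:75707234-75707483: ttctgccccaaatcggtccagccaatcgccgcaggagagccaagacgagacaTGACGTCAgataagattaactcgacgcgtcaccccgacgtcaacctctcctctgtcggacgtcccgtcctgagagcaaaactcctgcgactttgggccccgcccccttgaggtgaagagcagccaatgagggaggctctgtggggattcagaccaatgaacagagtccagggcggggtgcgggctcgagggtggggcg

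In Derl3 the match is to ERSE read on the reverse strand, from position -156 to -138 relative to the start, at chr10:75893242-75893260. ERSE occurred in 39 of 32851 windows, or 0.119%. In Ell2 the match is to the palindromic CRE, from position -198 to -191 relative to the RefSeq start, a motif found in 1.79% of windows. That window lies within the gene as annotated in GENCODE M21, which begins further upstream. The deposited counts used GENCODE M4, where the Ell2 transcript has 3647 nt, against 4382 nt in M21. UPRE occurred in 0.676% of windows and ERSE-II in 0.0365%, and neither was in a window of the 7 genes searched. Among other ER genes, ERSE was in the windows of Calr, Hsp90b1, Hspa5 and Pdia6, which are 4 of the 10 polymer quality control partners with a window, and of Syvn1, 1 of the 12 further ERAD genes with a window. It was in no window of the other lists of the secretory route. A match describes these letters only, and no binding was measured.

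The assembly genes were the highest of the 9. Mzb1 (ENSMUSG00000024353.4, chromosome 18 from 35647267 to 35649367 on the minus strand) encodes an ER-resident partner of the chaperone Grp94 that takes part in antibody assembly. It had 810 TPM in replicate 1 and 694 TPM in replicate 2, from 11481 and 10936 expected counts. Its mean of 752 ± 82.1 TPM (SD, n = 2) ranked 140 among detected protein-coding genes, above 98.6% of them. Jchain (ENSMUSG00000067149.5, chromosome 5 from 88519809 to 88527891 on the minus strand) encodes the joining chain of polymeric IgA and IgM. It had 284 TPM in replicate 1 and 250 TPM in replicate 2, from 6242 and 6112 counts. Its mean was 267 ± 23.9 TPM (SD, n = 2), rank 454, above 95.6%. Replicate 1 was the higher library for both genes, and every Mzb1 value lay above every Jchain value. Mzb1 overlaps another annotated gene on its own strand, which was not analysed here.

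The joining chain message was lower than those of its partners. Jchain reached 7.33 TPM per 100 TPM of Igha, the IgA heavy chain constant region, in replicate 1 and 6.22 in replicate 2 (mean 6.78 ± 0.779, SD, n = 2). Against Igha and Ighm, the IgM constant region, summed, the ratio was 5.70 in replicate 1 and 4.74 in replicate 2. The value of each heavy chain gene sums all its transcripts, whose shares are given below. Mzb1 stood at 16.3 and 13.2 TPM per 100 TPM of both heavy chains in replicates 1 and 2. The ratio of Jchain to Mzb1 differed less between the libraries, at 35.0 and 36.0 Jchain TPM per 100 Mzb1 TPM.

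The heavy chain messages themselves stood at 3871 TPM of Igha in replicate 1 and 4012 TPM in replicate 2, and at 1107 and 1261 TPM of Ighm. The light chain constant regions Igkc (7364 and 8313 TPM) and Iglc2 (617 and 796 TPM) completed the cargo list. As background, the membrane forms of both heavy chains carry additional 3′ exons that the secreted forms lack. The Igha transcript with 3 annotated exons held 70.6% of the gene's TPM in replicate 1 and 67.8% in replicate 2, and the longer one with 4 exons held the rest. For Ighm the transcript with 4 exons held 60.2% and 68.3%, and that with 6 exons held the rest.

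Fkbp11 (ENSMUSG00000003355.6, chromosome 15 from 98724366 to 98728198 on the minus strand), an ER prolyl isomerase gene, was of middle rank. It had 20.6 TPM in replicate 1 and 16.1 TPM in replicate 2, from 233 and 202 counts, with a mean of 18.3 ± 3.20 TPM (SD, n = 2) above 46.1% of detected protein-coding genes. Among 6 ER prolyl isomerases of its family it was second to Fkbp2 (76.8 and 63.0 TPM), and it held 20.5% and 19.9% of their summed TPM in replicates 1 and 2. Fkbp7 stood at 1.46 and 1.12 TPM. Fkbp14 (1.01 and 0.370 TPM), Fkbp10 (0.230 in each library) and Fkbp9 (0.0600 in each) missed detection.

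Both ERAD genes were expressed, but they held different places in their families. Edem1 (ENSMUSG00000030104.7, chromosome 6 from 108828641 to 108859356 on the plus strand) encodes a lectin-like protein that takes part in mannose trimming of misfolded glycoproteins. It had 60.5 TPM in replicate 1 and 61.4 TPM in replicate 2 (mean 60.9 ± 0.643, SD, n = 2), from 5762 and 6503 counts. Its values were the closest of the 9 genes, with an SD of 1.06% of the mean. It led its family, with 61.7% and 61.1% of the TPM summed with Edem2 (29.8 and 31.3 TPM) and Edem3 (7.65 and 7.76 TPM).

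Derl3 (ENSMUSG00000009092.4, chromosome 10 from 75893413 to 75895941 on the plus strand) encodes a derlin, one of the membrane proteins through which ERAD substrates leave the ER. It had 13.8 TPM in replicate 1 and 16.4 TPM in replicate 2 (mean 15.1 ± 1.80, SD, n = 2), from 293 and 386 counts. Replicate 2 was the higher library. Derl3 was the lowest derlin, at 6.80% and 7.71% of the family in replicates 1 and 2, below Derl1 (123 and 126 TPM) and Derl2 (66.1 and 69.7 TPM) in both libraries.

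Lman1 (ENSMUSG00000041891.11, chromosome 18 from 65980738 to 66022580 on the minus strand) encodes a mannose-binding cargo receptor that cycles between the ER and the Golgi. It had 75.6 TPM in replicate 1 and 69.2 TPM in replicate 2 (mean 72.4 ± 4.50, SD, n = 2), above 80.8% of detected protein-coding genes. Its level was close to that of the related lectin Lman2 (71.8 and 74.1 TPM), and their order turned between the libraries. Mcfd2, the partner with which Lman1 carries clotting factors in humans, stood at 28.3 and 27.9 TPM per 100 TPM of Lman1 in replicates 1 and 2. Lman1l was at 0.220 and 0.130 TPM. In CPM (counts scaled to the library total, not to length) Lman1 had 142 (95% Wilson bounds 137 to 147) in replicate 1 and 147 (142 to 151) in replicate 2, so TPM placed replicate 1 higher and read numbers placed it lower.

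Of the nuclear regulators, Ell2 was the higher. Ell2 (ENSMUSG00000001542.6, chromosome 13 from 75706757 to 75772364 on the plus strand) encodes an elongation factor known to favour the secreted form of heavy chain messages in plasma cells. It had 53.2 TPM in replicate 1 and 50.4 TPM in replicate 2 (mean 51.8 ± 1.95, SD, n = 2), from 3143 and 3313 counts. It held 81.7% and 79.3% of the TPM of its family in replicates 1 and 2, ahead of Ell (10.8 and 12.4 TPM) and Ell3 (1.13 and 0.740 TPM). Annotated genes overlap Ell2 on both strands, and whether counting used strand is not given in the sources used here, so reads of the antisense gene could not be told apart.

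Creb3l2 (ENSMUSG00000038648.5, chromosome 6 from 37327255 to 37442146 on the minus strand) encodes a transcription factor held in the ER membrane until proteases release it. It had 5.08 TPM in replicate 1 and 6.31 TPM in replicate 2 (mean 5.70 ± 0.870, SD, n = 2), above 19.1% of detected protein-coding genes. Its relative Creb3 was higher in both libraries, at 28.5 and 24.1 TPM. Creb3l1 stood at 1.19 and 1.46 TPM, and Creb3l4 (0.540 and 0.440 TPM) and Creb3l3 (0 and 0.10 TPM) missed detection. The proteases Mbtps1 (25.3 and 26.0 TPM) and Mbtps2 (18.4 and 22.1 TPM) were both detected.

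Sdc1 (ENSMUSG00000020592.10, chromosome 12 from 8771323 to 8793715 on the plus strand), which encodes the plasma cell surface proteoglycan CD138, was the lowest of the 9. In bulk RNA, fewer cells with a message and less of it per cell cannot be told apart. Sdc1 had 1.59 TPM in replicate 1 and 1.23 TPM in replicate 2 (mean 1.41 ± 0.255, SD, n = 2), from 65 and 64 counts, and only 1.92% of detected protein-coding genes lay below it. In CPM that is 2.83 (95% Wilson bounds 2.22 to 3.60) in replicate 1 and 2.49 (1.95 to 3.18) in replicate 2. The deposited posterior mean, a second estimate, was higher, at 2.12 TPM in replicate 1 (deposited interval 1.41 to 2.91) and 1.85 TPM in replicate 2 (1.20 to 2.60). The level of that interval is not given in the file header. For the other 8 genes the deposited posterior SD of the gene count was 0 in both libraries, which does not mean that their levels are without uncertainty. The deposited interval of Mzb1 in replicate 1, for instance, was 746 to 773 TPM, below its TPM of 810. Among syndecans Sdc4 was far higher, at 28.2 and 34.3 TPM, Sdc3 was at 0.020 and 0.10 TPM, and Sdc2 had 0 counts, which allows up to 0.0477 TPM at 3 counts over both libraries.

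In the order Mzb1, Jchain, Lman1, Edem1, Ell2, Fkbp11, Derl3, Creb3l2, Sdc1, only Fkbp11 and Derl3 were neighbours whose values overlapped. For every other pair of neighbours both values of the higher gene lay above both values of the lower one, with 2 libraries each.

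**Figure D2:**
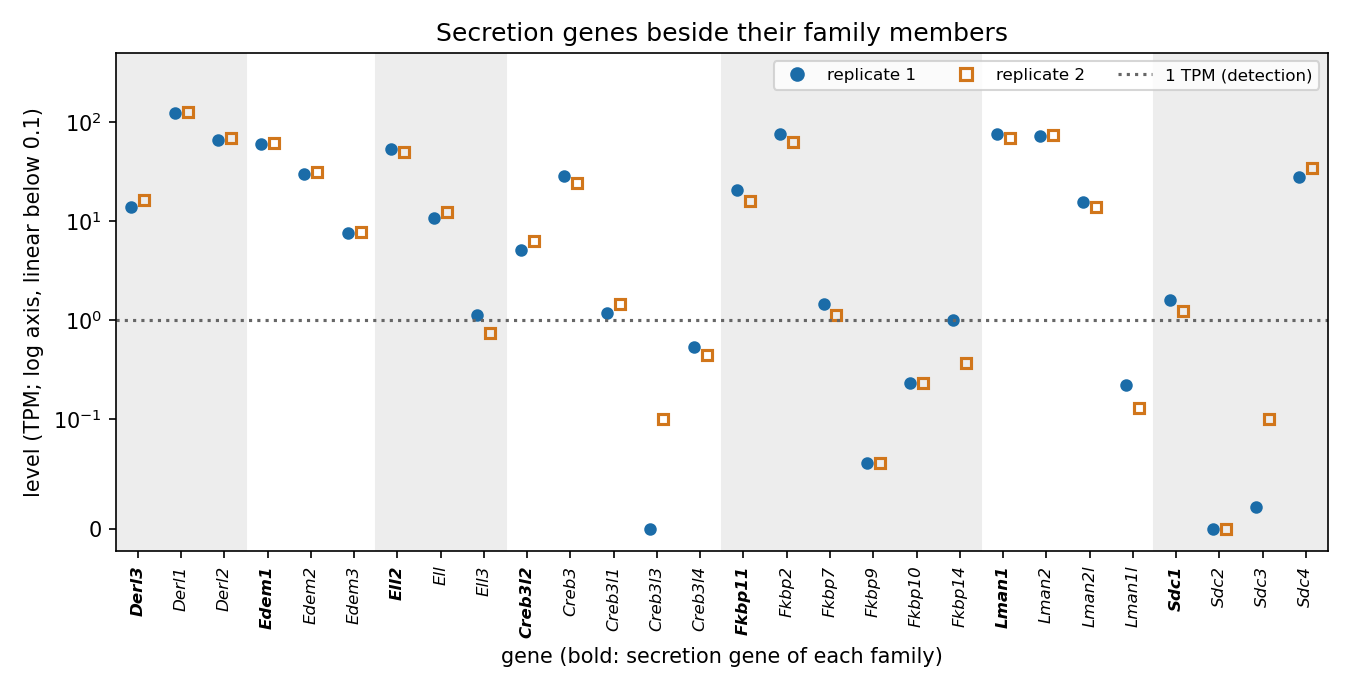
Levels in TPM (log axis, linear below 0.1) of 7 of the genes, in bold, beside their family members, in replicate 1 (filled circles) and replicate 2 (open squares). Edem1 and Ell2 lead their families, whereas Derl3 lies below Derl1 and Derl2 and Sdc1 lies below Sdc4.

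The transcripts of a gene share reads, so their shares are estimates. In the deposited tables Mzb1, Ell2, Edem1, Derl3 and Fkbp11 have 1 transcript each, and the other 4 genes have more. Jchain was nearly all on the protein-coding Jchain-201 (4 exons, 1393 nt), at 98.4% in each library, with 1.6% on Jchain-202. GENCODE M21 annotates Jchain-202 as a retained intron of 2341 nt, whereas the deposited transcript has 815 nt. For Creb3l2, the coding Creb3l2-201 held 100% in replicate 1 and 88.9% in replicate 2. The remainder was the noncoding Creb3l2-202 (648 nt), with 0 counts in replicate 1 and 7.76 counts in replicate 2. Its posterior mean was 4.67 ± 4.02 counts in replicate 1 and 8.93 ± 3.99 counts in replicate 2 (posterior SD), so the libraries were not separated.

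Lman1 was divided over more transcripts. The long coding Lman1-201 (3563 nt) held 54.7% in replicate 1 and 73.0% in replicate 2. The coding Lman1-202 held 26.3% and 15.2%, and the noncoding Lman1-206 (713 nt) held 18.4% and 11.2%. In posterior mean counts Lman1-202 had 710 ± 53.3 in replicate 1 and 416 ± 41.8 in replicate 2 (posterior SD). Lman1-206 had 151 ± 27.6 in replicate 1 and 93.1 ± 30.6 in replicate 2. The shorter transcripts thus took the larger share in the library where Lman1 was higher in TPM and lower in read numbers, and their part in that was not tested.

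For Sdc1 the transcript with the larger estimated share changed with the library. Sdc1-205 (2311 nt) held 73.2% in replicate 1 and 30.7% in replicate 2, and Sdc1-201 (3157 nt) held 26.8% and 69.3%. Behind Sdc1-205 were 43.3 and 15.6 expected counts in replicates 1 and 2. Its posterior mean was 34.6 ± 11.8 counts in replicate 1 and 17.1 ± 10.5 counts in replicate 2 (posterior SD). Sdc1-201 had 25.9 ± 11.2 and 41.7 ± 10.8 counts. These transcripts were thus not separated in replicate 1, and the change of the leading one is uncertain. By posterior mean TPM the share of Sdc1-205 was 42.3% and 22.2%, so the size of the share depended on the estimate as well as on the library.

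**Figure D3:**
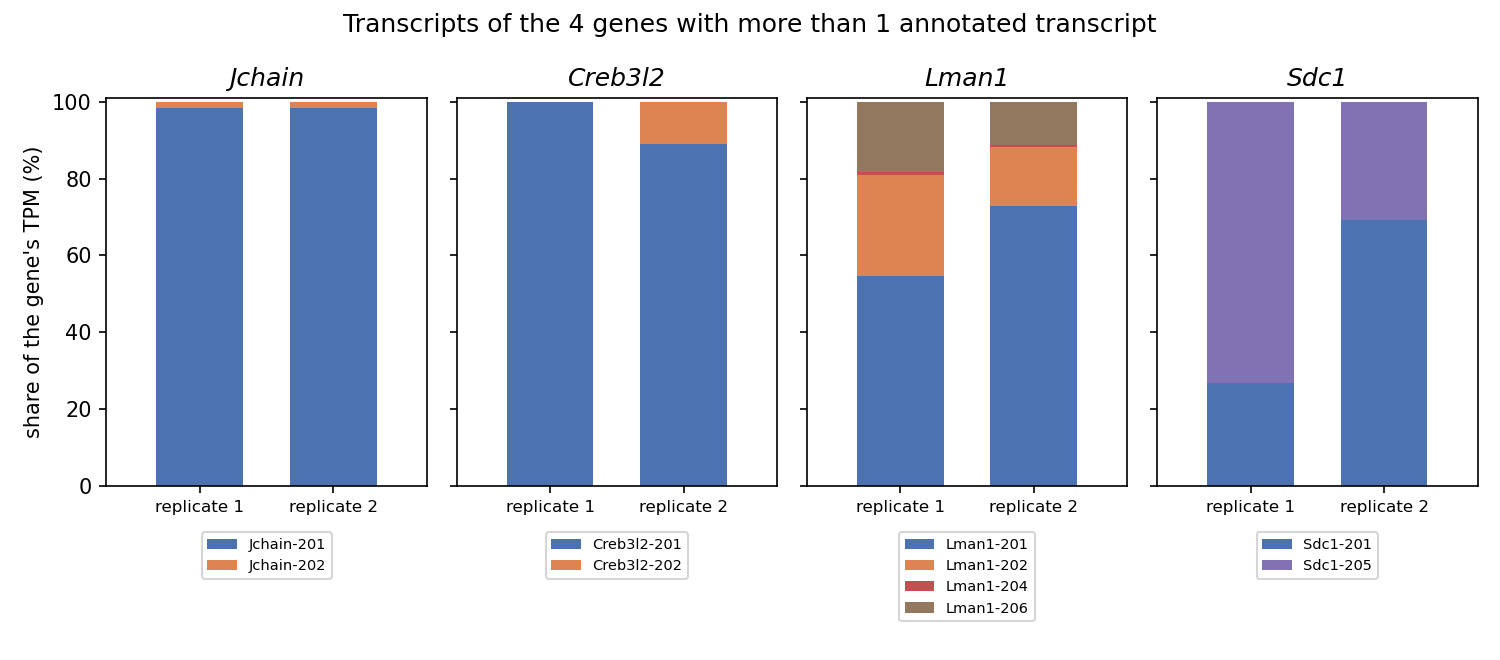
Share of each gene's TPM on its transcripts, in percent, in replicate 1 (left bar) and replicate 2 (right bar) for the 4 genes with more than 1 annotated transcript. Jchain is the same in both libraries, while the larger estimated share of Sdc1 changes transcript, on few counts.

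Each gene's counts in the libraries were compared with a two-sided exact binomial test that holds counting error only, with Benjamini-Hochberg adjustment over 15340 genes. By this test 3 of the 9 genes were higher in replicate 1, where 15.9% of all tested genes were. None of the 9 passed as lower in replicate 1, where 14.7% of tested genes did, and 6 passed in neither direction. In either direction 30.6% of tested genes passed, so a share of 3 in 9 lies near the background. With edgeR's negative binomial exact test, which adds the spread of all genes between the libraries, 0 of the 9 passed and 0 were under an unadjusted p of 0.05, where 2.54% of tested genes passed. That spread was estimated from these same libraries, so here and below this test cannot show whether small ratios are real. The median log2 ratio of replicate 1 over replicate 2 was 0.06 for the 9 genes and 0.00 for all tested genes.

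Mzb1 was 1.15-fold higher in replicate 1 than in replicate 2 (95% interval 1.12 to 1.19, adjusted p = 2.44e-25, exact binomial test). Jchain was 1.12-fold higher (1.08 to 1.16, adjusted p = 1.73e-09, exact binomial test) and Fkbp11 1.27-fold higher (1.05 to 1.54, adjusted p = 0.0473, exact binomial test). These are small differences between deep counts for Mzb1 and Jchain, and a difference near the threshold for Fkbp11.

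The ratios of the others, replicate 1 over replicate 2, had adjusted p-values from 0.0654 to 0.724 in the exact binomial test. The 95% intervals are not adjusted for the number of genes, so some exclude 1 where the adjusted p did not pass. Derl3 was at 0.835 (95% interval 0.715 to 0.974) and Creb3l2 at 0.886 (0.794 to 0.990). Lman1 was at 0.951 (0.907 to 0.997), Edem1 at 0.974 (0.940 to 1.01) and Ell2 at 1.04 (0.993 to 1.10). The ratio of Sdc1, 1.12, had an interval of 0.778 to 1.60, which spans 1, so the direction of a difference was not resolved at this depth. Mitochondrial genes took 2.02% of counts in replicate 1 and 3.04% in replicate 2, and the part of this in the differences was not tested.

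**Figure D4:**
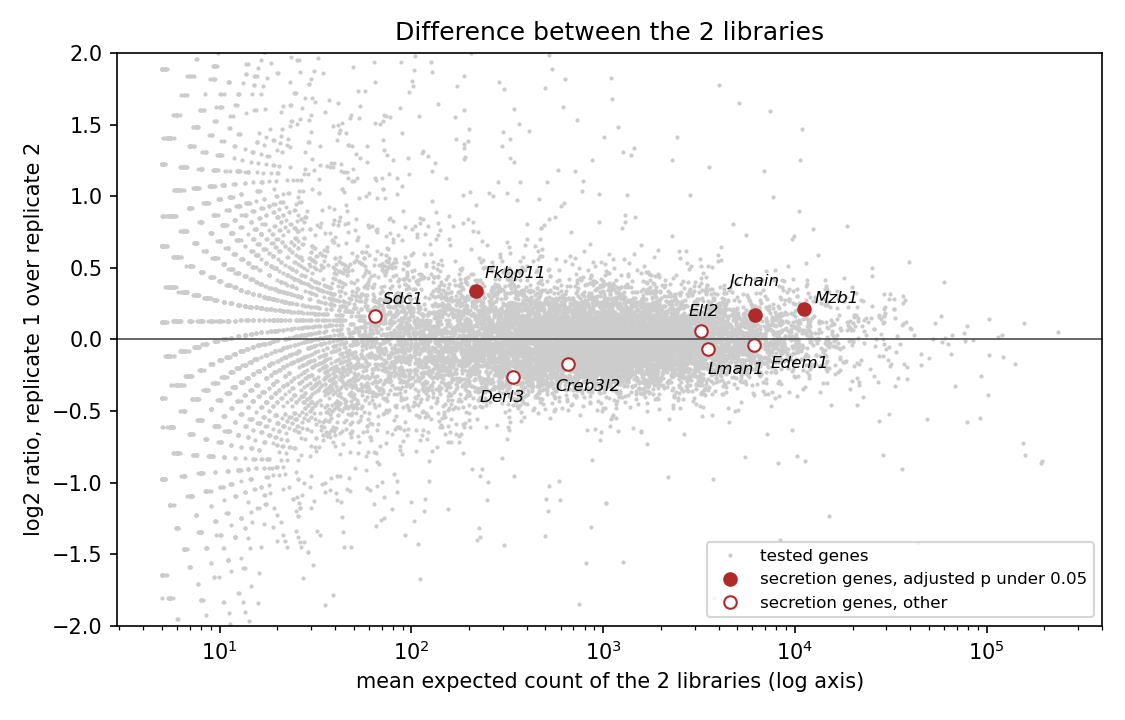
Log2 ratio of replicate 1 over replicate 2 against the mean expected count (log axis) for tested genes averaging 5 counts or more (grey) and the 9 secretion genes (red, filled where the adjusted p of the exact binomial test was under 0.05). The 9 genes lie between -0.26 and 0.34, and 488 grey genes lie beyond the vertical axis.

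The wider secretory route was described with 84 further genes in 9 lists. Of these, 75 were detected, and their median level was 53.0 TPM. By the exact binomial test 16 of the 81 tested were higher in replicate 1 and 26 were lower, where 15.9% of all tested genes were higher and 14.7% were lower. These shares over all tested genes, and this test, are also those to set beside the counts of each list that follows. Genes with deep counts pass this test at smaller ratios, and the shares are not matched for depth. A list or marker set of deeply counted genes can therefore exceed them without larger differences. By edgeR's negative binomial exact test 0 of them passed, and 0 were under an unadjusted p of 0.05.

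All 12 quality control partners of polymers were detected, with a median of 135 TPM, and 7 were higher and 1 lower in replicate 1. The list was led by the chaperones Calr (1247 TPM in replicate 1 and 845 TPM in replicate 2), Hsp90b1, which encodes the Grp94 that Mzb1 partners (880 and 853 TPM), and Hspa5 (639 and 581 TPM). The gene that was lower in replicate 1 was Erp44 (66.1 and 73.4 TPM), which retains unassembled antibody subunits through thiols. All 4 cargo genes were lower in replicate 1.

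All 16 further ERAD genes were detected, with a median of 67.0 TPM, 3 higher and 3 lower in replicate 1. They were led by the ATPase Vcp, which extracts substrates from the membrane (359 and 340 TPM), Derl1 and Herpud1 (90.3 and 91.0 TPM). Of the 12 genes of elongation and heavy chain poly(A) choice, 11 were detected, and 3 were higher and 3 lower. The highest were Hnrnpf (661 and 592 TPM), Cdk9 (107 and 99.8 TPM) and the cleavage factor gene Cstf2 (86.3 and 65.7 TPM). The calls rest on counts and can differ from the order in TPM. Among the genes called lower in both lists, Sel1l (69.7 and 62.4 TPM), Ube2j1 (78.2 and 68.1 TPM) and Aff4 (38.8 and 37.0 TPM) were higher in replicate 1 by TPM. The other genes called lower in these lists were lower by TPM too.

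Of 18 ER export genes and cargo receptors, 17 were detected, with a median of 66.2 TPM, and 1 was higher and 7 were lower in replicate 1. The highest were Tmed2 (167 and 202 TPM), Surf4 (109 and 118 TPM) and the coat subunit gene Sec13 (122 and 107 TPM), of which Sec13 was the one higher in replicate 1. All 8 regulators of the secretory programme were detected, 0 higher and 6 lower. Atf4 (249 and 262 TPM), the B cell coactivator Pou2af1 (187 and 199 TPM) and Xbp1 (83.4 and 96.4 TPM), the transcription factor of the plasma cell unfolded protein response, led this list. Of the Creb3 family and its proteases 1 was higher and 1 lower, of the ER prolyl isomerases 1 was higher, and of the syndecans 1 was lower.

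**Figure D5:**
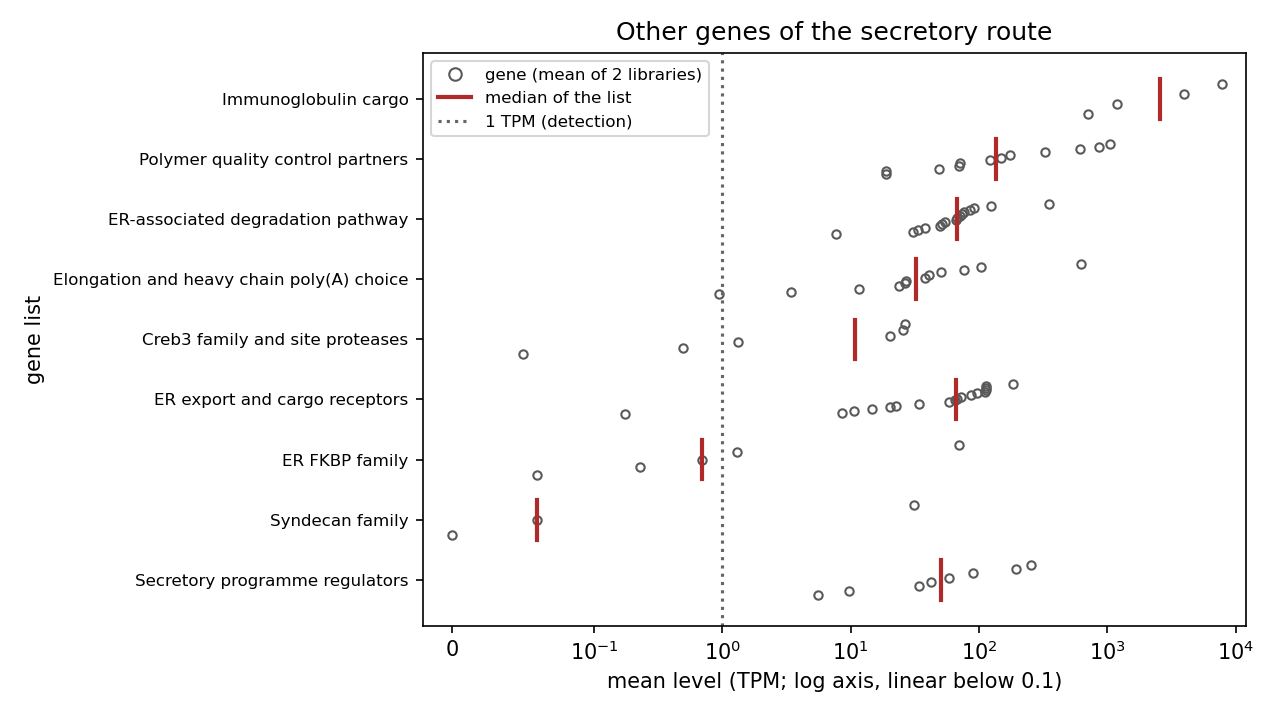
Mean level of the 2 libraries in TPM (log axis, linear below 0.1) for each gene (circles) of the 9 further lists, with the list median (red bar). The cargo list lies highest, and the prolyl isomerase and syndecan lists have medians below 1 TPM.

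The line was checked against cell type markers. All 8 B cell markers were detected, from 31.9 to 535 TPM. By the exact binomial test all 8 were lower in replicate 1, where 14.7% of all tested genes were, against 6 of 8 with library totals as the scale and 0 of 8 by edgeR's negative binomial exact test (0 also at an unadjusted p under 0.05). Of 6 plasma cell markers 5 were detected, led by Tnfrsf13b (231 and 260 TPM), while Tnfrsf17, which encodes the plasma cell receptor BCMA, had 0 and 1 counts. Prdm1 (9.64 and 9.88 TPM) and Slamf7 (7.29 and 7.75 TPM) were the lowest of those detected. Of the 5 tested, 0 were higher and 3 (Irf4, Xbp1 and Slamf7) lower in replicate 1 by the exact binomial test, and 0 passed the negative binomial exact test, also 0 at an unadjusted p under 0.05. Of 7 epithelial markers Epcam alone was detected (1.22 and 1.21 TPM), with Krt8, Krt19 and Cdh1 at 0 counts, and the list summed to 1.64 and 1.53 TPM. None of 6 stromal markers (sums 0.510 and 0.580 TPM; Col3a1 and Dcn at 0 counts) or of 6 T cell and myeloid markers (1.39 and 2.20 TPM; Elane at 0 counts) was detected.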

How the data were processed

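RNA of 2 CH12.LX libraries was measured, with 22996547 and 25715408 expected counts in replicates 1 and 2. Per the file headers and deposited notes, each library has a gene and a transcript table on mm10 with GENCODE M4. Neither the aligner, the quantifier nor the strand setting is given in the sources used here. Expected counts, as deposited, are estimates that split shared reads. The deposited TPM and FPKM are scaled by length and depth by the authors. Isoform shares, as deposited, give in percent how a gene divides over its transcripts. The deposited interval bounds and posterior SDs were read as scores of uncertainty.

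Names, coordinates and transcript classes came from GENCODE M21 on GRCm38 (42462 of 43346 genes, 98.0%), and promoters from RefSeq. Some transcripts differ in length from the deposited M4 models, such as Lman1-202, with 2208 nt as deposited and 1741 nt in M21. The 26345 entries that name no gene, spike-ins included, held 0.0426% and 0.0539% of counts and stayed out of tests and library sizes. Expected counts were rounded, and genes with at least 10 summed counts entered a two-sided exact binomial test (scipy 1.17.1) against TMM effective library sizes (edgeR 4.0.16), Benjamini-Hochberg adjusted at 0.05. Log2 ratios used a pseudocount of 0.5. No quasi-likelihood test could be fitted, since no residual degrees of freedom were available with 1 library on each side. Alternatives used edgeR's negative binomial exact test, with the common dispersion of both libraries as 1 group (biological coefficient of variation 19.8%), and DESeq2 1.42.0 size factors. The binomial test was tried on simulated counts that held counting error only. The simulation therefore cannot show how it behaves with the wider spread between these libraries. Wilson bounds and floors hold only counting error. Reads lacking molecular identifiers may repeat 1 molecule, so even that error may be understated. P-values measure differences between libraries, which may be technical.

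The genes and lists were chosen with earlier results of these data known. Named were all 9 genes, the 3 highest of each list, list genes under 1 TPM, the immunoglobulin constant regions, and transcripts with 10% of a gene or leading it. From the marker lists only some of these are named. Other family members, Erp44, Pdia6, Syvn1, Sel1l, Ube2j1, Aff4, Prdm1, Slamf7, Mbtps1, Mbtps2, Mcfd2 and the sex-linked genes were named after their values were seen. Likeness to other genes was not computed, since 2 libraries of 1 group hold no pattern.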

Additional observations from a re-analysis of the deposited data

How the results depend on the processing

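With edgeR's negative binomial exact test, 0 of the 9 genes differed between the libraries in place of 3, and 389 in place of 4692 of all tested genes. The calls of Mzb1 (log2 ratio 0.21), Jchain (0.17) and Fkbp11 (0.34) were lost there, and that of Fkbp11 also without the filter on low counts (0.35), where 2 genes passed. Of 45 alternative log2 ratios 41 kept their direction and side of the threshold, 4 were lost and 0 reversed. The number of genes detected lay between 8 and 9 at 0.5 TPM, 5 TPM, 1 FPKM or without a replicate. The Jchain-201 share was 98.3% by posterior mean TPM, against 98.4%. Leaving out each replicate in turn gave 98.4% to 98.4% for it, 88.9% to 100% for Creb3l2-201, 54.7% to 73.0% for Lman1-201 and 30.7% to 73.2% for Sdc1-205. It gave 6.22 to 7.33 for Jchain per 100 Igha and 4.74 to 5.70 per 100 of both heavy chains. The test between libraries cannot be run without a replicate, as 1 library is left. Outside the mitochondrial chromosome each level was 1.07 times as high, and by posterior mean TPM Sdc1 was 1.41 times as high (1.99 TPM). By posterior mean TPM the other genes were at 0.940 to 1.00 times their level. No paired analysis was possible because the study has 1 group. Depth limits Sdc1 most, with 65 and 64 counts.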
